A study of Homo sapiens with 12 samples.

Results

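The genes described here are 10 members of the WNT signalling pathway, measured in the established human melanoma cell lines A375 and SKMel28. They are the ligands WNT5A and WNT5B, the receptors ROR1 and ROR2, the inhibitors DKK1 and DKK3, the transcription factors LEF1 and TCF7, and the feedback genes AXIN2 and NKD1. They were chosen by symbol, and all 10 were found among the 26499 genes of the deposited counts. Poly(A)-selected RNA was sequenced from 4 groups of 3 libraries, 12 in all: A375 sensitive cells, A375-R resistant cells, SKMel28 sensitive cells and SKMel28-R resistant cells. All were grown in DMEM with 10% serum. Vemurafenib, an inhibitor of mutant BRAF kinase, was present at 1 µmol/L in the culture of the resistant cells, and the labels name none for the sensitive ones, so that acquired resistance and drug exposure cannot be told apart. The study was set up around IGF1 signalling in resistance to BRAF and MEK inhibitors. Whether a resistant line is a clone or a pool, and whether its libraries stem from separate cultures, is not given in the sources used here, so the p-values measure the spread between these libraries, which may be technical.

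WNT proteins are secreted lipid-modified ligands. In the canonical branch a ligand bound to a Frizzled receptor and LRP5 or LRP6 stops the breakdown of beta-catenin, which enters the nucleus and switches on genes together with the TCF/LEF factors. AXIN2 and NKD1 are classical targets of that branch and act back on it as inhibitors, and DKK1 blocks it outside the cell by binding LRP5 and LRP6. WNT5A and WNT5B mostly signal without beta-catenin, in part through ROR1 and ROR2, and in melanoma WNT5A is known for its association with an invasive, poorly pigmented state. In melanoma LEF1 is known from differentiated cells, while TCF7 is best known from T cells.

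Reads assigned to genes numbered 28496518 to 37721363 per library. Levels below are in CPM, which is reads scaled to the library's size, counted over the tested genes and adjusted between libraries by TMM. The melanocyte list behaved differently in the lines. The summed level of its 8 genes was 373 to 383 CPM in sensitive A375 and 31.3 to 33.7 CPM in resistant A375, with SOX10 at 325 and 0.138 CPM and MITF at 39.6 and 31.0 CPM in these groups, and no TYR read in either. In SKMel28 it was 7270 to 7710 CPM in sensitive and 10900 to 11100 CPM in resistant cells, with all 8 genes above 1 CPM. The genes of the list did not move together there. SOX10 (722 and 569 CPM), S100B (465 and 185 CPM) and DCT (266 and 218 CPM) were lower in resistant SKMel28. TYRP1 (218 and 2040 CPM), PMEL (4540 and 6110 CPM), MITF, MLANA and TYR were higher. The 4 immune markers summed to at most 0.518 CPM and the 3 endothelial markers to at most 3.05 CPM. The 8 fibroblast markers summed to 17.5 to 27.8 CPM and the 6 keratinocyte or epithelial markers to 42.9 to 124 CPM. Both sums were lower in resistant than in sensitive cells of each line, but not for each gene. In SKMel28 the sums were mostly LUM (22.7 and 14.0 CPM) and KRT10 (68.2 and 30.8 CPM), while COL1A1 (2.08 and 3.63 CPM) and CDH1 (10.2 and 15.7 CPM) were higher in resistant cells. The part of these marker changes in the results was not tested. In bulk RNA, fewer cells of a type and less RNA per cell cannot be told apart.

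The promoter windows of RefSeq (GRCh38.p14) covered 7 of the 10 genes, in 10 windows of 250 bases before an annotated start. They were searched on both strands for the TCF/LEF motif in 4 spellings (CTTTGAT and also CTTTGAA, and with another base CTTTGTT and also CTTTGTA), for the AP-1 motif TGANTCA and for the E-box CACGTG. A TCF/LEF match was found in 2 of the 10 windows, against 12% of all 35116 promoter windows of that length. No member window held the AP-1 motif or the E-box, which 6.57% and 6.34% of all windows held. Below, the windows with a match (DKK1 and the second TCF7 start) are shown beside those of the pair WNT5A and ROR1, which changed in opposite directions in the lines and held no match. Each runs 5′ to 3′ on the gene's own strand, and capitals mark the TCF/LEF match. DKK1 is at chr10:52314031-52314280 (plus strand), TCF7 at chr5:134123368-134123617 (plus), WNT5A at chr3:55481399-55481648 (minus) and ROR1 at chr1:63773767-63774016 (plus). WNT5A has another window, at chr3:55487307-55487556 (minus), which also held no match and is not shown.
DKK1: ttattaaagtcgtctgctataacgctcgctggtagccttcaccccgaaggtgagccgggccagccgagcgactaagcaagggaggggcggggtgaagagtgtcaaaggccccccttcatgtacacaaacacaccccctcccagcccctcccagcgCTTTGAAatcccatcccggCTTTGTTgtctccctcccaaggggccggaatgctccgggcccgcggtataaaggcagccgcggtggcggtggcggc
TCF7: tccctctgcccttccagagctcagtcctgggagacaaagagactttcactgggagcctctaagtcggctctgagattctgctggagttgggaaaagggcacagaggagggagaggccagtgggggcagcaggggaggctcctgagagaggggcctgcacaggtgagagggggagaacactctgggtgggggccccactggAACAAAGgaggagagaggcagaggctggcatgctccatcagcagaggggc
WNT5A: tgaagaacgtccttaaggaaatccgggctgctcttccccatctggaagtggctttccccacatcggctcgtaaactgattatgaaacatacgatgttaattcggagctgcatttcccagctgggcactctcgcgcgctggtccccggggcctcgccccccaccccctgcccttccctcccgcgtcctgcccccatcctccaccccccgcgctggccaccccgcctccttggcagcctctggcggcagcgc
ROR1: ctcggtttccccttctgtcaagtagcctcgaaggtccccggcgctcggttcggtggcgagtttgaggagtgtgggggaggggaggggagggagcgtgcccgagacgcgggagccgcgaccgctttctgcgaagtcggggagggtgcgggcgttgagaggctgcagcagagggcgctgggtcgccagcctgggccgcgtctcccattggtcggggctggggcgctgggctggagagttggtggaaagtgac
The DKK1 matches began 95 and 76 bases before the start, and the TCF7 match, AACAAAG on the strand shown, began 50 bases before its start. A match describes letters in the window and is not a measured binding site.

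Of the 10 genes, 9 had enough reads to pass the filter on low counts, and ROR2 did not. With resistance in A375, 5 of the 9 changed (edgeR's quasi-likelihood test, Benjamini-Hochberg adjusted p below 0.05 over 15506 genes), while 51.3% of all tested genes did so. TCF7 and AXIN2 rose (25% of all tested genes rose), and WNT5A, ROR1 and LEF1 fell (26.3% fell). In SKMel28 all 9 tested genes changed, against a background of 70%. DKK3 is the weakest of these calls: it has 26 and 9 reads there, passed the filter through its A375 reads, and was not called without SKMel28 sensitive 3 or SKMel28 resistant 3, which leaves 8. WNT5A, ROR1 and TCF7 rose there (background 34.2%), and WNT5B, DKK1, DKK3, LEF1, AXIN2 and NKD1 fell (background 35.8%). The change differed between the lines for 7 of the 9, beside 63.8% of all genes: the value was higher in A375 for 5 (background 31.4%) and lower for 2 (32.4%). LEF1 fell and TCF7 rose in both lines, whereas WNT5A, ROR1 and AXIN2 changed in opposite directions. Of all tested genes, 5975 changed in both lines, and 52.1% of those went opposite ways, so the 3 of 5 found here is near the background.

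**Figure D1:**
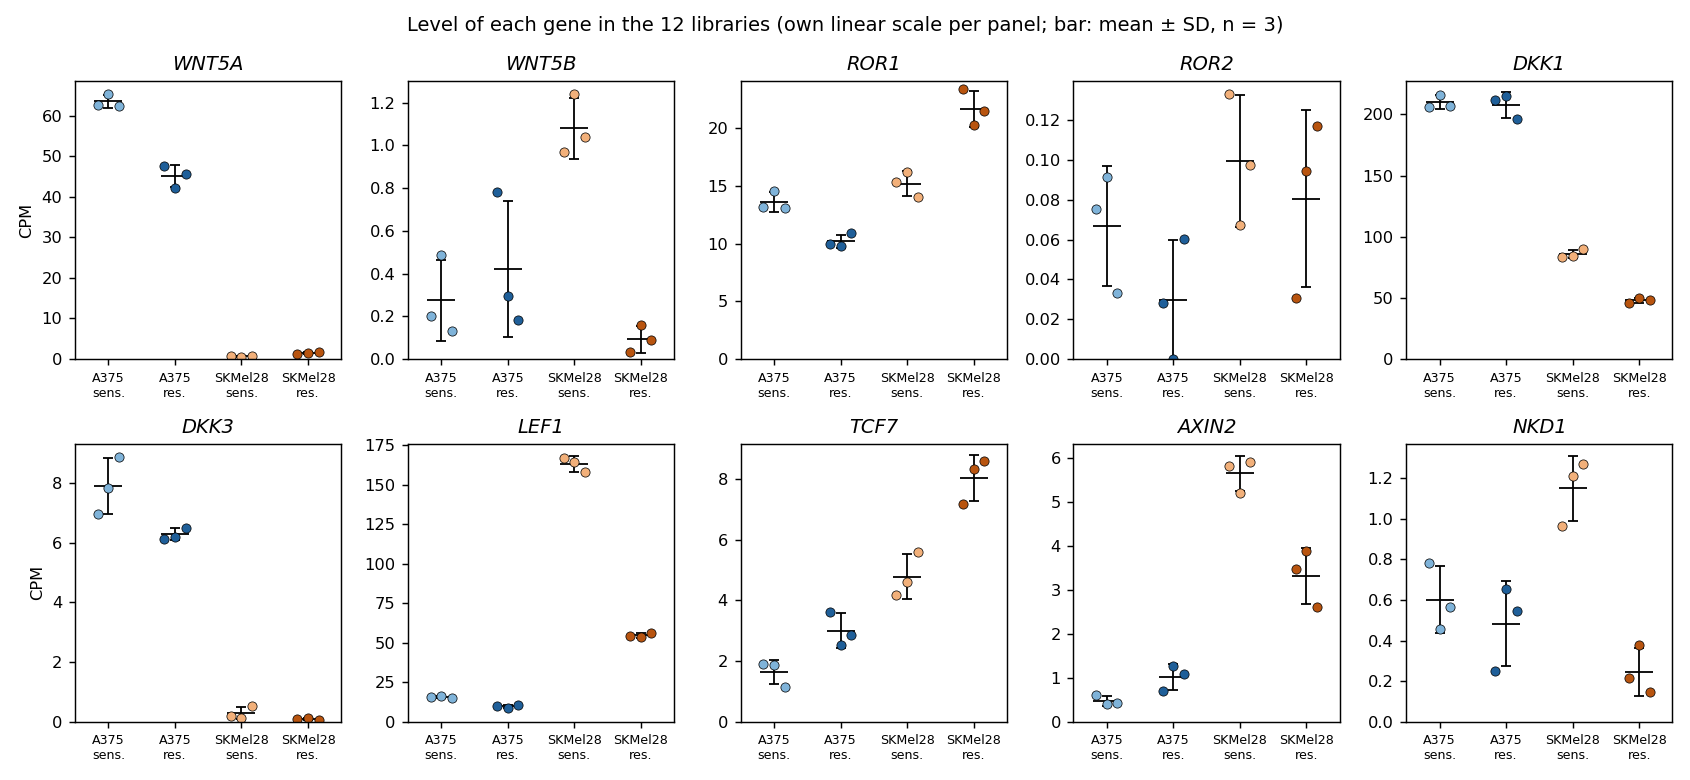
Level of each of the 10 genes in CPM (vertical axes, linear, each panel with its own scale) in the 3 libraries of each group, with bars for mean and SD. WNT5A in A375 sat between 42.1 and 65.3 CPM and in SKMel28 between 0.47 and 1.78 CPM, while LEF1 was highest in sensitive SKMel28 at 158 to 167 CPM.

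The ligand gene WNT5A (chr3:55465715-55490539, minus strand, GRCh38) was the member with the largest gap between the sensitive lines. In A375 its level was 62.6, 65.3 and 62.5 CPM in the sensitive libraries and 47.5, 42.1 and 45.6 CPM in the resistant ones. The SKMel28 levels were 0.767, 0.47 and 0.814 CPM in the sensitive libraries and 1.17, 1.42 and 1.78 CPM in the resistant ones. Within each line the groups did not overlap, and the resistant libraries were the lower group in A375 and the higher group in SKMel28. The log2 fold change was -0.49 ± 0.06 (SE, n = 3 against 3, edgeR adjusted p = 9.90e-09) in A375 and 1.09 ± 0.22 (adjusted p = 3.83e-05) in SKMel28. The changes differed by -1.58 on the log2 scale (A375 minus SKMel28, edgeR adjusted p = 9.87e-08). Even after these changes the resistant A375 cells held 31.0 times the WNT5A level of the resistant SKMel28 cells. The SKMel28 values rest on 62 reads in the sensitive and 144 reads in the resistant group.

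WNT5B (chr12:1529891-1647243, plus strand), the closest relative of WNT5A, followed another pattern at a low level. It was at 0.967, 1.24 and 1.04 CPM in sensitive SKMel28 and at 0.0307, 0.158 and 0.0875 CPM in resistant SKMel28, from 98 and 9 reads. In A375 it was at 0.202, 0.488 and 0.133 CPM in sensitive and 0.783, 0.297 and 0.182 CPM in resistant cells. The SKMel28 groups were far apart and the A375 groups overlapped. WNT5B fell by 3.51 on the log2 scale (SE 0.60, edgeR adjusted p = 1.52e-06) in SKMel28. In A375 the log2 fold change was 0.63 ± 0.54 (adjusted p = 0.348) and turned to -0.16 without the library A375 resistant 1, which held 28 of the 44 reads of its group. The difference between the lines was 4.15 on the log2 scale (edgeR adjusted p = 2.66e-05). WNT5B passed the filter through its SKMel28 reads and did not pass it with A375 fitted alone. In SKMel28, then, the rise of WNT5A went with a fall of WNT5B, and the order of the pair turned: by CPM per kilobase of exon, WNT5B was above WNT5A in sensitive cells (0.252 against 0.0925) and below it in resistant cells (0.0214 against 0.197).

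Compared per kilobase over 19 WNT ligand genes, WNT5A made up 55.3% ± 1.49 (SD, n = 3) of the summed ligand level in sensitive A375 and 26.6% ± 1.40 in resistant A375. The total was 15.5 and 22.9 CPM per kilobase in these groups. In SKMel28 the share of WNT5A was 2.72% ± 0.575 in sensitive and 15.6% ± 3.01 in resistant cells, with totals of 3.37 and 1.26. WNT10B, a ligand best known for the canonical branch, was the main ligand in SKMel28 by exon length, with 72.1% and 54.5% of the sum. With the median length of protein-coding transcripts in place of exon length, a setting chosen after the data were seen, the WNT5A shares in A375 were 64.9% and 34.6%. The WNT10B shares in SKMel28 were lower by that length, at 59.1% and 38.5%. So WNT5A was the leading ligand transcript of sensitive A375 cells by both lengths, and its share was lower in every resistant A375 library (25% to 27.6%) than in any sensitive one (53.8% to 56.7%).

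**Figure D2:**
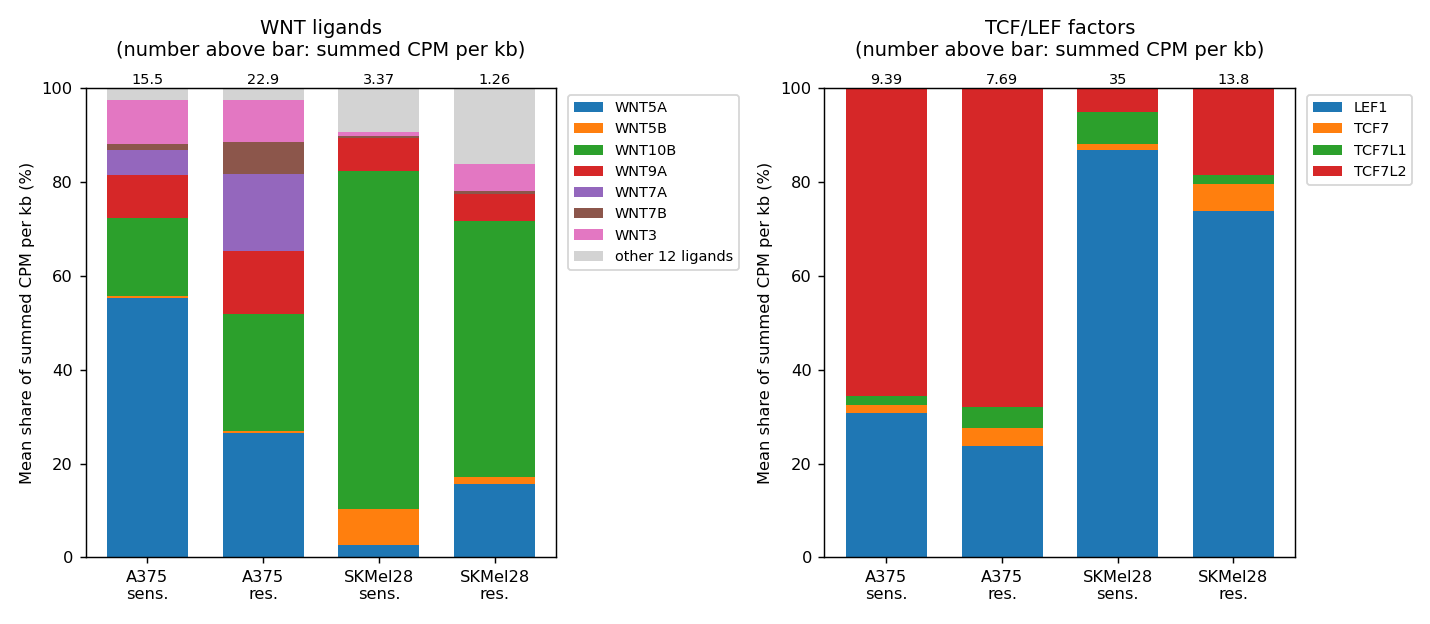
Mean share of each gene in the summed CPM per kilobase (vertical axis, percent) of 19 WNT ligands (left) and of 4 TCF/LEF factors (right), by group, with the sum above each bar. WNT5A made up 55.3% and 26.6% of the ligand sum in sensitive and resistant A375, and LEF1 86.8% and 73.9% of the TCF/LEF sum in sensitive and resistant SKMel28.

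Of the receptor tyrosine kinase-like genes, ROR1 (chr1:63774022-64181498, plus strand) was measured at a moderate level in every group. In A375 it was at 13.2, 14.6 and 13.1 CPM in sensitive and 9.98, 9.81 and 10.9 CPM in resistant libraries. The SKMel28 libraries were at 15.3, 16.2 and 14.0 CPM in sensitive and 23.4, 20.3 and 21.5 CPM in resistant libraries. The sensitive cells of the lines overlapped, and the resistant groups lay on either side of them. The log2 fold change was -0.41 ± 0.09 (edgeR adjusted p = 1.65e-04) in A375 and 0.52 ± 0.09 (adjusted p = 8.29e-07) in SKMel28, and the changes differed by -0.93 (adjusted p = 1.33e-08). Sensitive A375 and sensitive SKMel28 differed in ROR1 by -0.16 ± 0.09 on the log2 scale, which missed the threshold (edgeR adjusted p = 0.0951, 95% interval -0.34 to 0.02). ROR1 thus went the same way as its ligand gene WNT5A in each line.

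ROR2 (chr9:91563091-91950162, minus strand), the other ROR receptor gene, was barely detected. It had 3, 3 and 1 reads in sensitive A375, 1, 0 and 2 in resistant A375, 4, 2 and 3 in sensitive SKMel28 and 1, 3 and 4 in resistant SKMel28. Resistant and sensitive libraries overlapped in both lines, and no test was made at these read numbers. The library with 0 reads allows up to 0.0957 CPM at 3 reads, scaled here by all its gene reads without TMM. That limit covers counting error only. Among the 4 WNT-binding kinases ROR1, ROR2, RYK and PTK7, ROR1 made up 9.40% to 11.8% of the summed CPM per kilobase in the group means, and ROR2 at most 0.0852%. RYK, a WNT-binding pseudokinase, was the main one at 53.2% to 69.8%. PTK7, a pseudokinase of planar polarity, moved as ROR1 did, by -0.32 ± 0.06 in A375 (edgeR adjusted p = 1.17e-05) and by 1.06 ± 0.06 in SKMel28 (adjusted p = 3.03e-21). RYK rose in SKMel28 by 0.13 ± 0.04 (adjusted p = 0.00472) and was at -0.06 ± 0.04 in A375 (adjusted p = 0.257).

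Genes near ROR1 on chromosome 1 moved with it in A375. The 45 other genes within 10 Mb that reached 2 CPM had a median log2 fold change of -0.60 (quartiles -0.72 and -0.46), while the median of all such genes was 0.01. ROR1 itself, at -0.41, fell less than most of its neighbours. In SKMel28 the median of 50 neighbours was 0.27 (quartiles -0.06 and 0.57), and ROR1 was at 0.52. For the other members with a called change in A375, the neighbours' medians lay between -0.03 (LEF1) and 0.11 (TCF7), far from the members' own values. In SKMel28 the neighbours of TCF7 had a median of 0.28, those of DKK3 -0.33 and those of LEF1 0.16. The part of this regional shift in the fall of ROR1 was not tested.

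**Figure D3:**
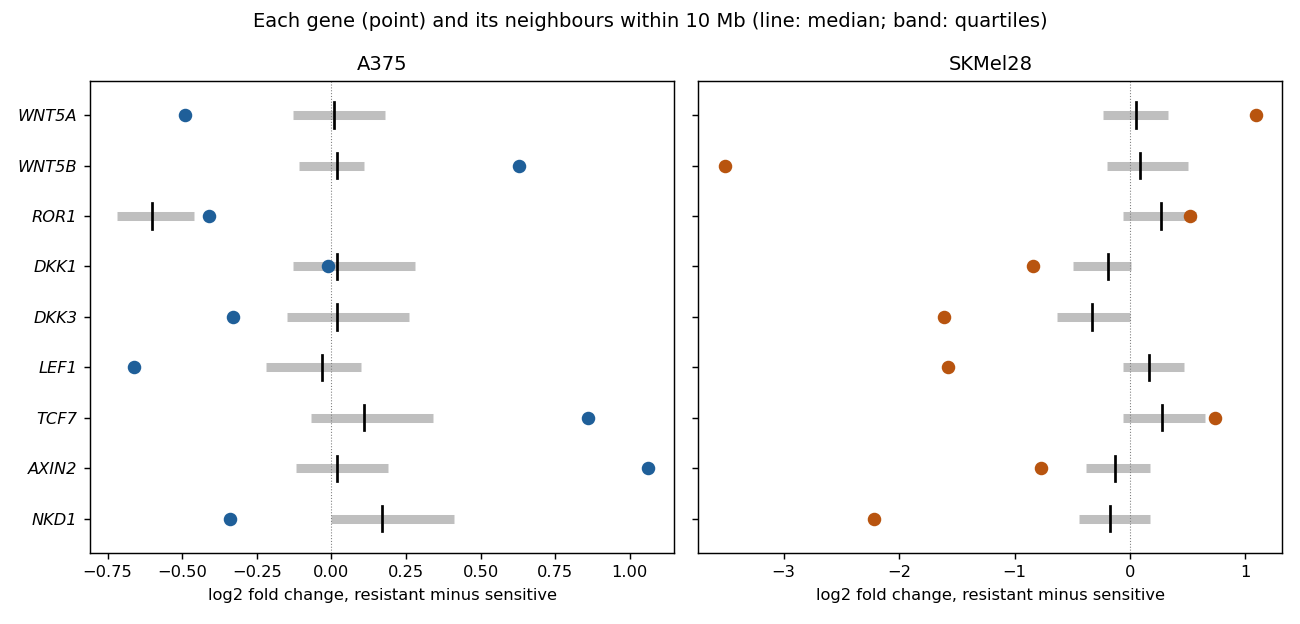
Log2 fold change, resistant minus sensitive (horizontal axis), of each tested gene (point) and of the genes within 10 Mb on either side (line for the median, band for the quartiles), in A375 (left) and SKMel28 (right, with its own scale). ROR1 in A375 is the case where the band lies away from 0, from -0.72 to -0.46.

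DKK1 (chr10:52314296-52318042, plus strand), the secreted blocker of LRP5 and LRP6, was the most abundant member by CPM per kilobase of exon in all 4 groups. By CPM alone LEF1 was above DKK1 in SKMel28, at 163 against 85.9 CPM in sensitive and 54.6 against 48 CPM in resistant cells. The order there thus depends on the exon length. Per kilobase, DKK1 stood above 97.3% of tested genes in sensitive A375 and above 84.7% in resistant SKMel28. In A375 the DKK1 level was 206, 216 and 207 CPM in sensitive and 212, 215 and 196 CPM in resistant libraries. The SKMel28 levels were 83.4, 84.3 and 89.9 CPM in sensitive and 45.8, 49.9 and 48.4 CPM in resistant libraries. The A375 groups overlapped, and every resistant SKMel28 library was below every sensitive one. In SKMel28 DKK1 fell by 0.84 on the log2 scale (SE 0.05, edgeR adjusted p = 1.57e-20). In A375 the log2 fold change was -0.01 ± 0.04 (adjusted p = 0.825), with a 95% interval of -0.09 to 0.07, and its sign turned under other scalings (0.02). The changes differed between the lines by 0.83 (edgeR adjusted p = 6.54e-16). The gene shares 9.61% of its exon length with the antisense gene PRKG1-AS1, whose own count was 0 to 21 reads per library.

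DKK3 (chr11:11963106-12009769, minus strand), a divergent member of the family that does not act on LRP6 in the way DKK1 does, was far more abundant in A375. There it was at 6.98, 7.84 and 8.88 CPM in sensitive and 6.12, 6.21 and 6.51 CPM in resistant libraries. In SKMel28 it was at 0.2, 0.134 and 0.521 CPM in sensitive and 0.0921, 0.126 and 0.0583 CPM in resistant libraries, from 26 and 9 reads. The groups did not overlap in either line, but the gap was small in both. The log2 fold change was -1.61 ± 0.58 in SKMel28 (edgeR adjusted p = 0.0127). That call rests on few reads: without SKMel28 sensitive 3, which held 16 of the 26 reads, the value was -0.84 (adjusted p = 0.279), and without SKMel28 resistant 3 it was -1.36 (adjusted p = 0.0558). In A375 the log2 fold change was -0.33 ± 0.15 (adjusted p = 0.0731). It passed the threshold with A375 fitted alone (-0.32, adjusted p = 0.0201) and without SKMel28 sensitive 3 (-0.33, adjusted p = 0.0403). The difference between the lines was 1.29 (adjusted p = 0.0594), and leaving out 1 library moved it between 0.51 (without SKMel28 sensitive 3, adjusted p = 0.537) and 1.61 (without SKMel28 sensitive 2, adjusted p = 0.0191). Of the summed DKK1, DKK2, DKK3 and DKK4 level per kilobase, DKK1 made up 98.2% to 99.6% in the group means. DKK2, an LRP-binding relative, fell by 1.73 in A375 (SE 0.51, adjusted p = 0.00388) from 0.649 to 0.196 CPM and was at 0.02 ± 0.49 in SKMel28 (adjusted p = 0.986).

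LEF1 (chr4:108047545-108168956, minus strand), one of the factors through which beta-catenin acts on genes, had the smallest adjusted p of the members in both lines. In SKMel28 it was at 167, 164 and 158 CPM in sensitive and 54.0, 53.3 and 56.4 CPM in resistant libraries. In A375 it was at 15.6, 16 and 14.7 CPM in sensitive and 10.1, 8.89 and 10.4 CPM in resistant libraries. The resistant libraries were lower in both lines without overlap, and all A375 libraries were below all SKMel28 libraries. LEF1 fell by 1.58 on the log2 scale in SKMel28 (SE 0.05, 2.98-fold, edgeR adjusted p = 1.81e-29) and by 0.66 in A375 (SE 0.07, 1.58-fold, adjusted p = 6.71e-11). The fall was larger in SKMel28 by 0.92 on the log2 scale (adjusted p = 1.02e-12). The antisense gene LEF1-AS1 shares 5.2% of the LEF1 exon length. In A375 it had 2, 4 and 4 reads in sensitive and 4, 5 and 2 reads in resistant libraries, which overlapped. In SKMel28 it had 116, 166 and 152 reads in sensitive and 13, 9 and 9 reads in resistant libraries. In that line alone it too was lower in each resistant library. Those reads are few beside the 4837 to 5012 reads of LEF1 itself in the sensitive libraries.

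TCF7 (chr5:134114711-134151865, plus strand), which encodes the factor TCF1, rose in both lines. In A375 it was at 1.89, 1.86 and 1.16 CPM in sensitive and 3.63, 2.53 and 2.85 CPM in resistant libraries. The SKMel28 libraries were at 4.17, 4.60 and 5.60 CPM in sensitive and 7.19, 8.32 and 8.60 CPM in resistant libraries. The 4 groups did not overlap and lay in the order sensitive A375, resistant A375, sensitive SKMel28, resistant SKMel28. The log2 fold change was 0.86 ± 0.20 in A375 (edgeR adjusted p = 2.74e-04) and 0.74 ± 0.16 in SKMel28 (adjusted p = 4.84e-05). No difference between these changes was detected (0.11, edgeR adjusted p = 0.721), and the 95% interval of the difference, -0.39 to 0.62 (A375 minus SKMel28), leaves room for a difference of that size in either direction. TCF7 was the only tested member called in the same upward direction in both lines. It shares 2.09% of its exon length with SKP1, which had 6494 to 9064 reads per library. How reads in that stretch were assigned is not given in the sources used here.

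Among the 4 TCF/LEF factors, compared per kilobase, LEF1 made up 86.8% ± 1.28 (SD, n = 3) of the sum in sensitive SKMel28 and 73.9% ± 1.11 in resistant SKMel28. The sum was 35.0 and 13.8 CPM per kilobase in these groups. In A375 TCF7L2, the factor best known from intestinal cells, was the main one at 65.6% and 67.8%, and LEF1 made up 30.7% ± 0.545 and 23.7% ± 1.19. In SKMel28 the share of TCF7L2 was 5.08% in sensitive and 18.5% in resistant cells, and that of TCF7 1.36% and 5.79%. TCF7L1, known mostly as a repressor, fell by 3.23 in SKMel28 (SE 0.19, edgeR adjusted p = 1.90e-19) from 10.4 to 1.10 CPM and rose by 0.91 ± 0.24 in A375 (adjusted p = 0.00130). TCF7L2 rose by 0.52 ± 0.08 in SKMel28 (adjusted p = 1.22e-07) and fell by 0.24 in A375 (SE 0.06, adjusted p = 0.00162). CTNNB1, the gene of beta-catenin itself, rose by 0.74 ± 0.03 in SKMel28 (adjusted p = 5.49e-24) and fell by 0.17 in A375 (SE 0.03, adjusted p = 1.90e-05). With the median length of protein-coding transcripts the LEF1 shares were 28.3% and 20.8% in A375 and 84.9% and 62.8% in SKMel28. The TCF7 shares were higher by that length, at 6.31% and 13.5% in A375 and 5.29% and 19.5% in SKMel28.

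AXIN2 (chr17:65528563-65561647, minus strand), a scaffold of the complex that breaks down beta-catenin and a direct target of the canonical branch, went opposite ways. In A375 it was at 0.605, 0.396 and 0.432 CPM in sensitive and 0.699, 1.28 and 1.09 CPM in resistant libraries, from 50 and 104 reads. The SKMel28 libraries held 5.84, 5.21 and 5.93 CPM in sensitive and 3.47, 3.88 and 2.62 CPM in resistant libraries. The groups of a line did not overlap, and the resistant libraries were higher in A375 and lower in SKMel28. The log2 fold change was 1.06 ± 0.31 in A375 (edgeR adjusted p = 0.00351) and -0.77 ± 0.19 in SKMel28 (adjusted p = 4.50e-04), and the changes differed by 1.83 (adjusted p = 2.36e-05). The lines thereby came closer. Sensitive A375 was lower than sensitive SKMel28 by 3.53 on the log2 scale and resistant A375 lower than resistant SKMel28 by 1.70. Of the summed AXIN1 and AXIN2 level per kilobase, AXIN2 made up 1.60% and 2.66% in A375 and 16.4% and 10.3% in SKMel28. Of its annotated exon length, 25.2% is shared with another annotated protein-coding gene on the same strand, which is absent from the deposited counts.

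NKD1 (chr16:50548330-50649249, plus strand), an inhibitor that binds Dishevelled and a target of the same branch, was low in all groups. In SKMel28 it was at 0.967, 1.21 and 1.27 CPM in sensitive and 0.215, 0.378 and 0.146 CPM in resistant libraries, from 104 and 24 reads. In A375 it was at 0.781, 0.457 and 0.565 CPM in sensitive and 0.252, 0.654 and 0.545 CPM in resistant libraries. The SKMel28 groups were apart and the A375 groups overlapped. NKD1 fell by 2.22 on the log2 scale in SKMel28 (SE 0.45, edgeR adjusted p = 3.14e-05). In A375 the log2 fold change was -0.34 ± 0.43 (adjusted p = 0.541), and the difference between the lines was 1.88 (adjusted p = 0.00875). In SKMel28, then, both feedback genes fell with LEF1 and DKK1, while CTNNB1, TCF7 and TCF7L2 rose.

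**Figure D4:**
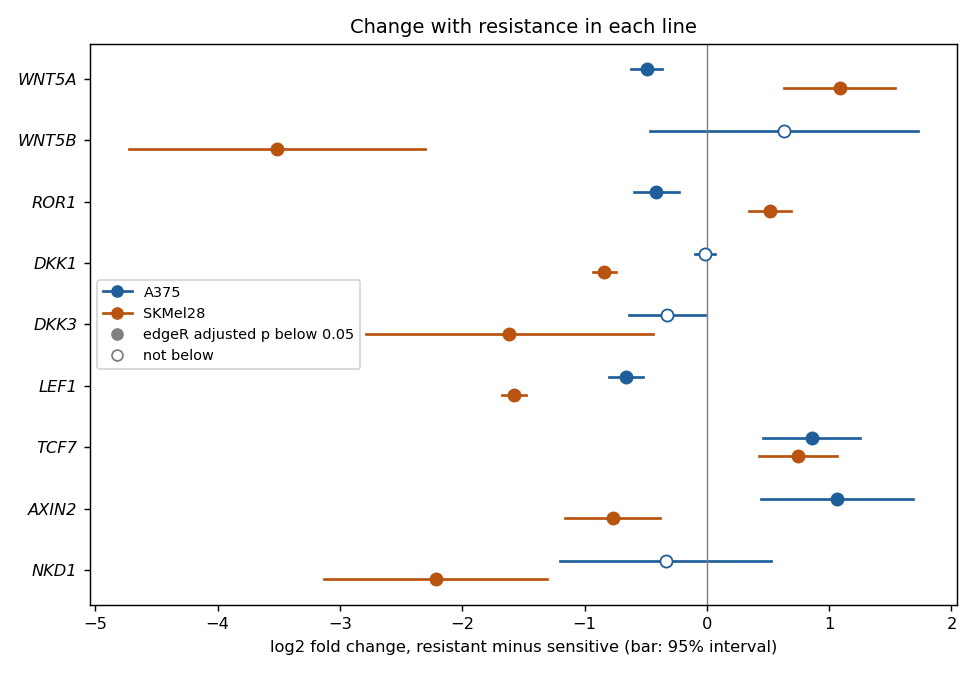
Log2 fold change, resistant minus sensitive (horizontal axis), of the 9 tested genes in A375 (blue) and SKMel28 (orange), with 95% intervals from edgeR and filled points where the adjusted p was below 0.05. LEF1 lies below 0 and TCF7 above 0 in both lines, while WNT5A, ROR1 and AXIN2 lie on opposite sides.

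The lines differed in these genes apart from resistance. Between the sensitive lines 8 of 9 members differed (82.9% of all tested genes did), and between the resistant lines 8 of 9 (85.3%). Sensitive A375 was higher than sensitive SKMel28 in WNT5A by 6.52, in DKK3 by 4.76 and in DKK1 by 1.29 on the log2 scale, with edgeR adjusted p of at most 2.22e-21, these being 3 genes beside 42.4% of all tested. It was lower in AXIN2 (-3.53), LEF1 (-3.40), WNT5B (-1.97), TCF7 (-1.53) and NKD1 (-0.91), the last with an adjusted p of 0.0297, which makes 5 genes beside 40.5%. The NKD1 call was lost in 6 of 17 alternatives (adjusted p up to 0.112). Between the resistant lines 4 members were higher in A375 (background 42.6%) and 4 lower (42.7%). ROR1 was among the lower ones, at -1.09 (edgeR adjusted p = 3.45e-15), having missed the threshold between the sensitive lines. WNT5B changed sides, at 2.17 (adjusted p = 0.00294), and this rests on A375 resistant 1, without which it was 1.38 (adjusted p = 0.0965). NKD1 was at 0.97 between the resistant lines (adjusted p = 0.0680).

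Another 94 WNT pathway genes were in the files, 69 of them tested, in lists by role that were set up with earlier results of these data known. In A375, 21 rose, 25 fell and 23 did not pass, with a median log2 fold change of -0.04 (all tested genes 0.00). In SKMel28, 29 rose, 25 fell and 15 did not pass, with a median of 0.02 (all tested genes -0.01). So 66.7% and 78.3% were called, beside backgrounds of 51.3% and 70%. Some of the 69 passed the filter through 1 line only. Over the sensitive and resistant groups, FZD9 had 0 and 5 reads and LGR6 0 and 0 reads in SKMel28. RNF43 had 2 and 10 reads in A375. These genes are named after their values were seen, and the shares are not over genes measured in each line. Of 8 other ligands tested in A375, 5 rose and none fell. WNT7B rose by 3.12 ± 0.23 (edgeR adjusted p = 8.21e-16) from 0.891 to 7.78 CPM and WNT7A by 2.18 ± 0.14 (adjusted p = 5.09e-17) from 3.80 to 17.1 CPM. WNT10B rose by 1.14 ± 0.11 and WNT9A by 1.10 ± 0.14. In SKMel28 some of the same 8 ligands had few reads and passed the filter only through A375: over the sensitive and resistant groups WNT7A had 0 and 0 reads, WNT7B 6 and 4, and WNT16 1 and 0. Of the 8, WNT9A and WNT10B fell there, WNT10B by 1.82 (SE 0.15, adjusted p = 3.46e-14), and WNT3 was called higher from 11 and 32 reads. WNT3 and WNT16 are named after their values were seen, and the count is not comparable with that of A375. PORCN, the acyltransferase that lipid-modifies WNT proteins, fell there by 2.40 (SE 0.12, adjusted p = 5.11e-22) from 18.9 to 3.57 CPM, and in A375 it was at -0.08 ± 0.10 (adjusted p = 0.566).

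The counts by role that follow stand beside the shares over all tested genes, 51.3% called in A375 and 70% in SKMel28, and with so few genes a role they are descriptions. Of 13 receptors tested, A375 had 5 that rose and 4 that fell, and SKMel28 had 6 and 4. The 13 include FZD9, with 0 and 5 reads in sensitive and resistant SKMel28. FZD2, a Frizzled receptor that can bind WNT5A, rose in SKMel28 by 1.15 ± 0.10 (edgeR adjusted p = 5.01e-14). LRP6, the co-receptor that DKK1 binds, fell in A375 by 0.21 (SE 0.05, adjusted p = 9.82e-04) and was at 0.10 ± 0.06 in SKMel28 (adjusted p = 0.108). Of 5 secreted inhibitors, A375 had 3 that fell and none that rose, and SKMel28 had 2 of each. SFRP1, which binds WNT ligands outside the cell, fell by 0.50 in A375 (SE 0.04) and rose by 0.60 ± 0.04 in SKMel28, from 75.3 to 114 CPM (adjusted p = 6.47e-16). Of 13 cytoplasmic genes, SKMel28 had 9 that rose and 3 that fell, and A375 had 6 and 3. DVL3, a Dishevelled that relays signals from Frizzled receptors, rose in SKMel28 by 1.55 ± 0.04 (adjusted p = 2.47e-30), from 131 to 383 CPM. Of 11 nuclear genes, SKMel28 had 2 that rose and 6 that fell, and A375 had 3 and 5.

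Of 10 planar polarity genes, A375 had none that rose and 6 that fell (all tested genes 25% and 26.3%), and SKMel28 had 5 of each (34.2% and 35.8%). DAAM2, a formin linked to Dishevelled, fell by 3.62 in A375 (SE 0.14, edgeR adjusted p = 1.13e-24) and by 1.93 in SKMel28 (SE 0.05, adjusted p = 5.00e-32). VANGL2, a core polarity protein gene, fell by 1.73 in A375 (SE 0.10) and rose by 0.97 ± 0.08 in SKMel28. PRICKLE2 and PRICKLE1, which encode partners of VANGL proteins, rose in SKMel28 by 1.86 ± 0.11 and 1.63 ± 0.14. Among other feedback or target genes of beta-catenin, TNFRSF19 fell by 5.21 in A375 (SE 0.13, adjusted p = 4.96e-32), from 16.1 to 0.428 CPM, and BAMBI by 2.46 (SE 0.10). In SKMel28 these genes rose, by 0.71 ± 0.05 and 0.56 ± 0.04. The third tested gene of that list, APCDD1, which encodes a WNT inhibitor at the cell surface and is named after its values were seen, fell in SKMel28 by 1.46 (SE 0.17, adjusted p = 8.51e-10), from 8.61 to 3.12 CPM, and had 1 and 0 reads in the A375 groups. The feedback and target genes thus did not move as 1 block in either line. AXIN2 rose in A375 where TNFRSF19 and BAMBI fell, and AXIN2, NKD1 and APCDD1 fell in SKMel28 where TNFRSF19 and BAMBI rose.

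**Figure D5:**
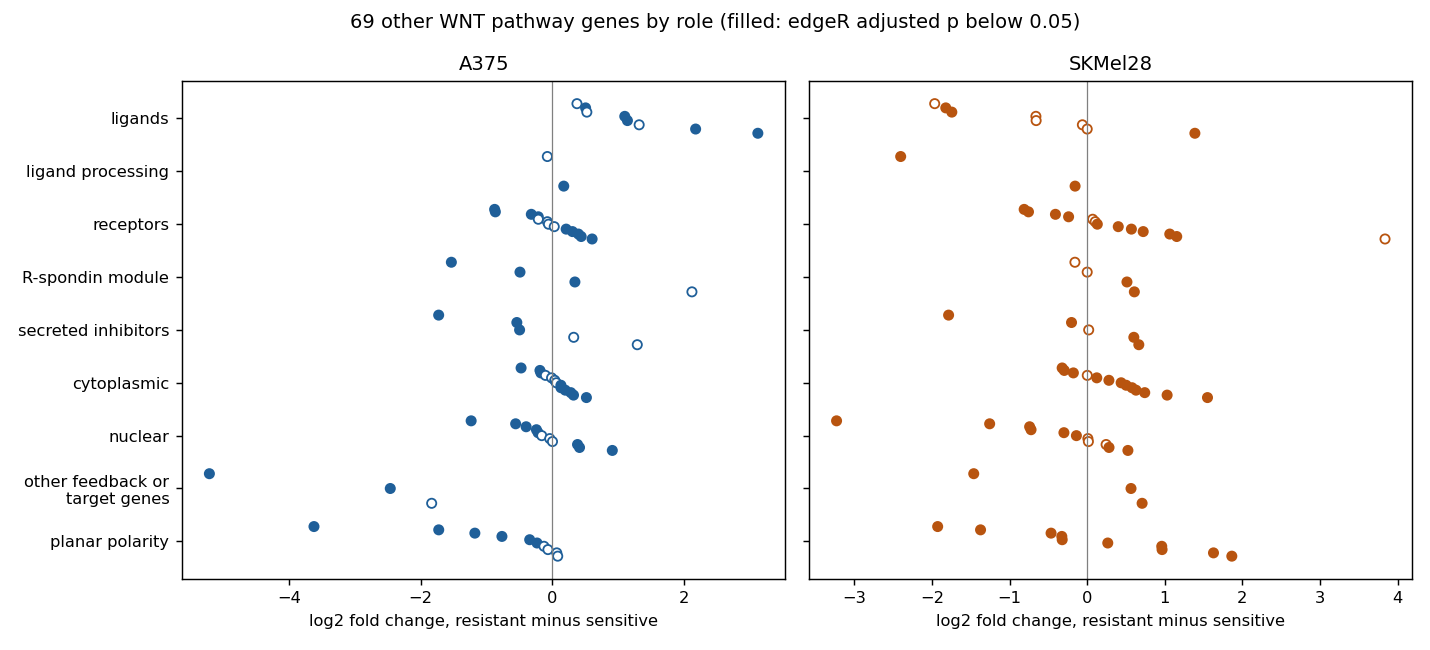
Log2 fold change, resistant minus sensitive (horizontal axis), of 69 other WNT pathway genes grouped by role, in A375 (left) and SKMel28 (right), filled where the edgeR adjusted p was below 0.05. All 5 filled ligand points lie above 0 in A375, and WNT7A, without a read in SKMel28, is drawn at 0 there.

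The genes whose log2 CPM followed a member most closely were found by Pearson's r over the 12 libraries, among tested genes that reached 10 CPM in a group. The libraries fall into 4 groups that share line and condition, so r mostly reflects 4 levels, and no p is given. A high r also does not mean changes of like size. LEF1 was followed most closely by CHL1 (r = 0.999) and by SNX10. In sensitive and resistant SKMel28 CHL1 was at 32.2 and 2.65 CPM and SNX10 at 136.8 and 52.9 CPM. In sensitive and resistant A375 CHL1 was at 0.0863 and 0 CPM and SNX10 at 20.4 and 14.5 CPM. DKK1 was followed by SCAMP3 and PRDX6, WNT5A by KBTBD4 and CAPRIN1, and DKK3 by FOXC1 and SYTL5. KBTBD4 was at 15.7 CPM in sensitive A375 and 6.6 CPM in sensitive SKMel28, a far smaller gap than that of WNT5A. ROR1 was followed by XPO1 and SMARCA5, AXIN2 by KPNA4 and PSPH, and TCF7 by OXNAD1 and MGAT4B. The closest genes of WNT5B (PRICKLE3, r = 0.948) and NKD1 (ZDHHC18, r = 0.915) had lower r, and both members were also low in reads.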

How the data were processed

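Human A375 and SKMel28 RNA-seq libraries were grouped by the labels into 4 groups of 3. The authors deposited 1 table of raw read counts by gene symbol for each library, closed by 5 lines as htseq-count writes them. HISAT2, StringTie and GRCh38.p12 are named in the submitters' processing notes, while the files' own names point to STAR and unstranded counting, so the aligner is not settled, and how reads of overlapping genes were assigned is not stated (1.14% to 1.39% of counted reads were listed as ambiguous). Those lines held 15.1% to 19.5% of counted reads and were left out. The 10 members and the lists of other genes were chosen with earlier results of these data known.

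Counts were filtered with filterByExpr (15506 genes left), scaled by TMM and fitted in 1 model of 4 group means (8 residual degrees of freedom) by the robust quasi-likelihood method of edgeR 4.0.16 in R 4.3.3, two-sided. Genes were called below 0.05 after Benjamini-Hochberg adjustment over every tested gene. CPM used TMM-adjusted library sizes, and CPM per kilobase the summed exon length of GENCODE release 29 (GRCh38). SE is the log2 fold change over the square root of F. The comparisons were resistant minus sensitive in each line, their difference, and line against line. Named were all 10 members, fixed relatives, and per line the 4 largest called rises and 4 largest falls of the pathway list at 1 CPM or more, AXIN1, DKK4, SKP1 and other overlapping genes being named as parts of a sum or an overlap. DESeq2 1.42.0, other scalings, no filter, a replicate block, each line alone and leaving out each library were alternatives. No replicate pair agreed within sampling noise (chi-square over degrees of freedom 2.81 to 7.45). The steps were tested on simulated counts.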

Additional observations from a re-analysis of the deposited data

Results flagged for a closer look

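For 7 of the 9 tested genes the change with resistance differed between A375 and SKMel28 by a test of the difference itself (edgeR interaction contrast, A375 change minus SKMel28 change, log2 scale, adjusted over all tested genes, of which 63.8% also differed). The resistant-minus-sensitive comparisons of the lines share no library, but they come from 1 model with a common filter, scaling and estimate of the spread. WNT5A differed by -1.58 (adjusted p = 9.87e-08) and ROR1 by -0.93 (adjusted p = 1.33e-08), both lower in A375 and higher in SKMel28. AXIN2 differed by 1.83 (adjusted p = 2.36e-05), higher in A375 and lower in SKMel28. WNT5B differed by 4.15 (adjusted p = 2.66e-05) and NKD1 by 1.88 (adjusted p = 0.00875), through falls in SKMel28 and values in A375 that did not pass the threshold. DKK1 differed by 0.83 (adjusted p = 6.54e-16), with a fall in SKMel28 and 95% bounds of -0.09 and 0.07 in A375. LEF1 differed by 0.92 (adjusted p = 1.02e-12), with falls in both lines.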

How the results depend on the processing

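Over 45 results on single members and 19 alternative settings, 748 of 781 values kept their direction and their side of the threshold. The 12 that turned sign were all of changes that did not pass it. DKK1 in A375 was at 0.0230 by DESeq2, 0.0232 by RLE scaling, 0.0175 by library size only and 0.0184 without the filter. With 1 library left out at a time, DKK1 in A375 ranged from -0.029 to 0.064, NKD1 in A375 from -0.59 to 0.011, WNT5B in A375 from -0.16 to 1.29 and the TCF7 difference from -0.064 to 0.25. NKD1 and WNT5B turned without A375 resistant 1, and the TCF7 difference without A375 resistant 1, A375 sensitive 3 or SKMel28 sensitive 3. Low-read genes crossed the threshold most: besides DKK3 and WNT5B above, the DKK3 difference fell to 0.51 without SKMel28 sensitive 3 but passed by DESeq2 (adjusted p = 0.0479), and the NKD1 gap between sensitive lines was lost by DESeq2 (-0.91), by library size only (-0.77) and without A375 sensitive 2, A375 sensitive 3, SKMel28 sensitive 2 or SKMel28 sensitive 3. The DKK3 difference also passed by library size only and without A375 sensitive 3 (1.38), SKMel28 sensitive 1 (1.48) or SKMel28 sensitive 2 (1.61). The NKD1 gap between resistant lines passed by library size only (1.18) and without A375 resistant 1 (1.30) or SKMel28 resistant 2 (1.40), and the ROR1 gap between sensitive lines without A375 sensitive 2 or SKMel28 sensitive 3 (both -0.21). The count of called members stayed within 5 to 6 in A375, 8 to 9 in SKMel28 and 7 to 8 for the difference. With SKMel28 fitted alone DKK3 did not pass the filter, and with A375 fitted alone WNT5B did not. Scaling by library size only moved the median of all genes by 0.15 and 0.21 (log2) between sensitive and between resistant lines. The deviations of same-numbered libraries from their group means correlated from -0.0136 to 0.102. With 3 libraries a group, such weak values cannot decide whether the numbers pair the libraries. With the replicate as a block the called members numbered 5, 9 and 7 as without it. The causes were not tested.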

Other observations

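NKD2, the paralog of NKD1, did not reach the filter, with 22 reads in sensitive and 3 in resistant A375, and 3 in sensitive and 23 in resistant SKMel28. Per kilobase, NKD1 made up 87.2% ± 22.2 (SD, n = 3) of the pair in sensitive and 17.6% ± 13.8 in resistant SKMel28, and 31.6% ± 7.70 and 84.9% ± 26.1 in A375. These shares rest on few reads and were not tested. They also depend on the long NKD1 exon length of 17.425 kb, and no other length was tried for this pair. By reads alone NKD1 had 63 in sensitive and 49 in resistant A375, and 104 and 24 in SKMel28, so it was not below NKD2 in any group.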
